A study of Mus musculus with 12 samples.

Results

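The cyclins that drive cell division and the kinases that they activate were followed as a set of 10 genes chosen by name, namely the D cyclins Ccnd1, Ccnd2 and Ccnd3, the E cyclins Ccne1 and Ccne2, the A cyclin Ccna2, the B cyclins Ccnb1 and Ccnb2, and the kinases Cdk1 and Cdk2. All 10 genes were listed in both expression tables, which held 29101 genes for mural granulosa cells (MGCs), the cells that line the follicle wall, and 33137 genes for cumulus cells, the cells that surround the oocyte. RNA was sequenced from MGCs and cumulus cells of eCG-primed immature female mice at 2 h after hCG, an agonist of the LH receptor, with 3 libraries for each cell type and genotype and 12 libraries in all. The WT mice were C57/BL6. The other mice, named Sphk1/2gc-/-, lacked Sphk1 in every cell and carried Sphk2 fl/fl alleles with an Fshr-Cre transgene, so that Sphk2 was to be lost where the Fshr promoter drives Cre, in granulosa cells. Sphk1 and Sphk2 encode the sphingosine kinases, which make sphingosine-1-phosphate. The sources used here do not say how many animals gave each library or whether animals were pooled. Libraries are therefore treated as the replicates, and each p-value measures only the spread between libraries.

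Cyclins are regulatory subunits that switch on cyclin-dependent kinases (CDKs) at set points of the cell cycle. The D cyclins respond to growth signals in G1 and pair with Cdk4 and Cdk6, the E cyclins pair with Cdk2 at entry into S phase, Ccna2 serves both Cdk2 and Cdk1 through S and G2 phase, and the B cyclins activate Cdk1 to start mitosis. Granulosa cells of growing follicles divide rapidly, Ccnd2 is the D cyclin best known for that division in response to FSH, and the LH surge is known to bring the cells out of the cycle as they differentiate.

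The genotype and cell type labels were checked first. In MGCs, the Sphk1 level was 1.68, 1.88 and 0.460 FPKM (fragments per kilobase of exon, scaled to the size of the library) in the WT libraries and 0.432, 0.557 and 0.104 FPKM in those labelled Sphk1/2gc-/-. In cumulus cells, Sphk1 went against the label, at 6 to 8 reads in the WT libraries and at 7, 43 and 51 reads in the libraries labelled Sphk1/2gc-/-. Sphk2 overlapped between genotypes in both cell types, at 4.51 to 6.29 FPKM in MGCs and 0.403 to 0.752 FPKM in cumulus cells. The deposited values sum all exons of a gene, so reads outside the deleted exons are included and do not test the deletion, and every genotype difference given here holds for the libraries as labelled. Lhcgr, the LH receptor of mural cells, stood at 210 to 565 FPKM in MGCs and 1.93 to 18.7 FPKM in cumulus cells, whereas Amh and Slc38a3, both known from cumulus cells, were lower in the libraries labelled cumulus cells (0.102 to 2.16 and 0.341 to 3.23 FPKM) than in MGCs (87.3 to 226 and 13.9 to 41.6 FPKM). MGC library 3 labelled Sphk1/2gc-/- stood apart, correlating with the other MGC libraries at r = 0.912 to 0.939 while other MGC pairs reached 0.986, and WT cumulus library 3 listed 27541 genes above 0 against 18788 to 19289 in the other cumulus libraries. Each library held 16100370 to 19761612 reads, as recovered from the deposited values.

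The promoters of the mitotic members are shown first because these members changed together in cumulus cells. Promoter sequences (RefSeq, GRCm38.p6) were at hand for 6 of the 10 members, namely Ccnd3, Ccne1, Ccnb1, Ccnb2, Cdk1 and Cdk2, and not for Ccnd1, Ccnd2, Ccne2 and Ccna2. The stretch from 110 bases before to 10 bases after the transcription start is printed for the 3 mitotic members and, beside them, for Cdk2 and Ccne1, which did not pass the test in cumulus cells. All 5 lie on the minus strand and read 5′ to 3′ along the gene. Capitals mark CCAAT boxes and the CHR (cell cycle genes homology region) letters TTTGAA or TTCGAA, and a box on the opposite strand reads ATTGG.
Ccnb1, chr13:100786477-100786596: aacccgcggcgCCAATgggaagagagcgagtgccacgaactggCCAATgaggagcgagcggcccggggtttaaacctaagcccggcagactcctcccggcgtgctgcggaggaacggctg
Ccnb2, chr9:70421545-70421664: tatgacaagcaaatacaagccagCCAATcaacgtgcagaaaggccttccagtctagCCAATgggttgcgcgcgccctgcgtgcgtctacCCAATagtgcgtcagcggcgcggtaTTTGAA
Cdk1, chr10:69352903-69353022: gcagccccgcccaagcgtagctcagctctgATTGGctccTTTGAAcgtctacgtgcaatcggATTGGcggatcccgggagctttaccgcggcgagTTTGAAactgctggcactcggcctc
Cdk2, chr10:128705042-128705161: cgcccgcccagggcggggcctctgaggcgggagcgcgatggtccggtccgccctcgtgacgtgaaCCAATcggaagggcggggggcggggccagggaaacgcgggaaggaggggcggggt
Ccne1, chr7:38107481-38107600: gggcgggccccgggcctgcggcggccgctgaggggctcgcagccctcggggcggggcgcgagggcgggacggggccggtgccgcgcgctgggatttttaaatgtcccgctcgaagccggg

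Ccnb1 held 2 CCAAT boxes, with first bases at −99 and −67 from the transcription start and thus 32 bases apart. Ccnb2 held 3 of them at −87, −54 and −21, each 33 bases from the next. Cdk1 held 3 on the opposite strand at −208, −80 and −48, the last pair 32 bases apart. Neighbouring boxes 31 to 33 bases apart, a spacing chosen after these positions were seen, occurred in 0.925% of the 32851 promoters of 300 bases in the table, and at least 1 CCAAT in 37.4%. Cdk2 and the second start of Ccnd3 held 1 CCAAT each, and Ccne1 and the other start of Ccnd3 held none.

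The CHR letters TTTGAA were present 2 times in Ccnb2 and 2 times in Cdk1, and TTCGAA was in none of the 7 member promoters searched. Over all promoters, TTTGAA occurred in 17.9%, TTCGAA in 1.56% and either in 19.2%. Of the E2F-type letters TTTCCCGC, TTTGGCGC, TTTCGCGC and TTTGCCGC, Cdk1 held TTTCGCGC (0.323% of all promoters) and Cdk2 held TTTCCCGC on the opposite strand (1.07%). The others occurred in 0.514% and 0.441% of all promoters, in the order given, and in no member. GGGCGG, the GC box (35.7% of all promoters), was found in every member promoter searched, with 6 copies in Cdk2, 4 in Ccne1 and 3 in Ccnb1. All letters were searched on both strands, and a match is a description of the sequence only. The map of motif positions sets these promoters side by side.

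**Figure D1:**
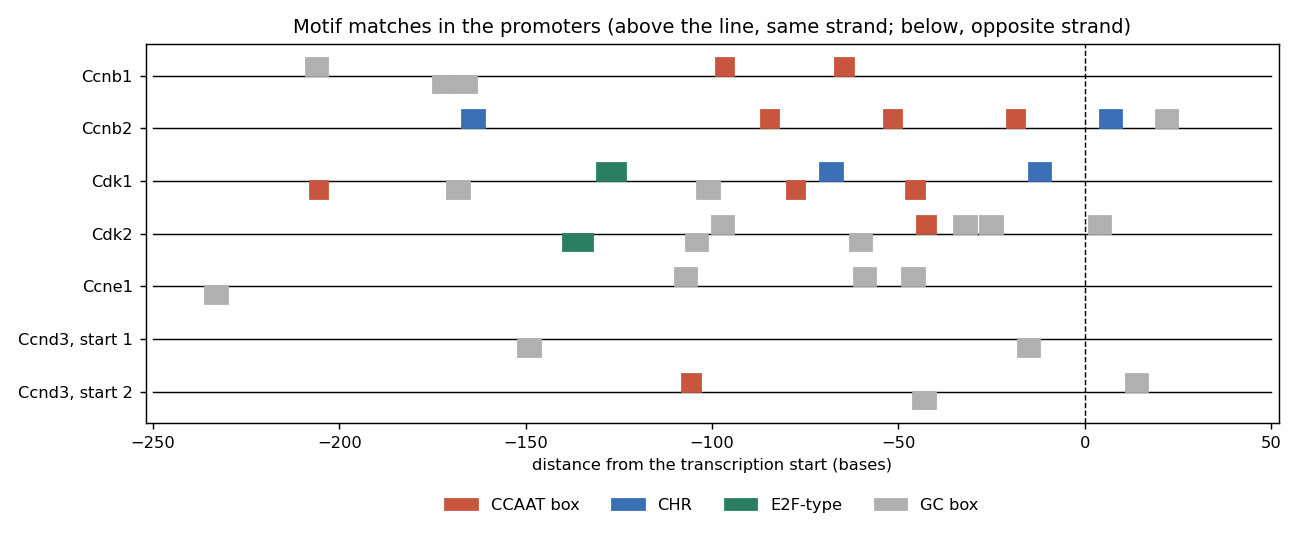
Positions of motif matches in the 7 member promoters, by distance in bases from the transcription start (dashed line), with matches on the gene's strand above each line and on the opposite strand below. Ccnb1, Ccnb2 and Cdk1 hold CCAAT boxes 32 or 33 bases apart, which the promoters of Cdk2, Ccne1 and Ccnd3 do not. This spacing was picked out after the positions were seen, Ccnd1, Ccnd2, Ccne2 and Ccna2 had no promoter to search, and a link to expression was not tested.

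The first comparison asked how the loss of both sphingosine kinases went with cyclin RNA in cumulus cells. The mitotic cyclins and Cdk1 were lower in the cumulus libraries labelled Sphk1/2gc-/-: mean FPKM was 2.21-fold lower for Ccnb1, 2.21-fold lower for Ccnb2, 2.11-fold lower for Ccna2 and 1.90-fold lower for Cdk1. The D and E cyclins and Cdk2 did not pass the test. Values were compared by limma on log2(FPKM + 1), which understates the change of low genes, among the 12205 genes whose mean reached 0.5 FPKM in WT or in the other genotype, and a gene passed if its p, adjusted by Benjamini-Hochberg over all of them, was 0.05 or less. Of the 9 members tested, 4 passed and were lower, against 12.7% of all genes tested, and none passed as higher, against 9.66%. In bulk RNA, fewer dividing cells and less cyclin RNA per cell cannot be told apart.

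Ccnb1 (chr13:100778650-100786570, GRCm38, minus strand), the cyclin that carries Cdk1 into mitosis, had the highest level of the 10 members in WT cumulus cells. Its level was 105, 111 and 110.2 FPKM in the WT libraries and 74.4, 42.0 and 31.4 FPKM in those labelled Sphk1/2gc-/-. The WT libraries lay close together, and all 3 of the others lay below them and spread over a wider range. The difference was −1.22 on the log2 scale (SE 0.28, limma adjusted p = 0.0188).

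Ccnb2 (chr9:70407692-70421547, minus strand), the other mitotic B cyclin, was at 25.8, 25.3 and 24.3 FPKM in WT, against 12.1, 14.1 and 7.83 FPKM in those labelled Sphk1/2gc-/-. The groups did not overlap, and the difference was −1.12 (SE 0.21, limma adjusted p = 0.00871). Cdk1 (chr10:69335146-69352938, minus strand), the kinase of both, was at 14.2, 14.5 and 13.6 FPKM in WT, against 7.37, 7.89 and 6.95 FPKM in the others. The Cdk1 means were 14.1 ± 0.445 FPKM in WT (SD, n = 3) and 7.40 ± 0.468 FPKM in those labelled Sphk1/2gc-/- (SD, n = 3). Its difference was −0.84 (SE 0.13, limma adjusted p = 0.00521), and both Ccnb2 and Cdk1 passed with each of the 6 libraries left out in turn.

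Ccna2 (chr3:36564865-36572150, minus strand), the cyclin of S and G2 phase, was at 18.0, 23.1 and 22.6 FPKM in WT, against 15.0, 8.24 and 6.92 FPKM in those labelled Sphk1/2gc-/-. The groups did not overlap, with library 1 labelled Sphk1/2gc-/- nearest to WT, and the difference was −1.07 (SE 0.26, limma adjusted p = 0.0233). For Ccna2 and Ccnb1 the call rested on all 6 libraries: leaving out any one of them except library 1 labelled Sphk1/2gc-/- took the limma adjusted p to between 0.0534 and 0.0809 for Ccna2 and between 0.0503 and 0.0634 for Ccnb1, with both genes lower each time. Without that library both passed, at limma adjusted p = 0.00182 for Ccna2 and 0.00114 for Ccnb1. With no filter on low values neither passed (limma adjusted p = 0.0868 and 0.0776), and with the library number as a block Ccna2 did not (limma adjusted p = 0.0537). With a log2 change of at least 1 asked for as well, Ccna2, Ccnb1 and Ccnb2 were called and Cdk1 was not, against 3.85% of all genes called as lower and 4.19% as higher. The 2 genotypes did not overlap, with the libraries labelled Sphk1/2gc-/- below WT, for Ccna2, Ccnb1, Ccnb2 and Cdk1 and for 24.1% of all genes tested.

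The E cyclins and their kinase Cdk2 behaved otherwise. Ccne2 (chr4:11191351-11204779, plus strand) was at 62.8, 67.4 and 60.7 FPKM in WT cumulus cells, against 149, 47.3 and 69.4 FPKM in those labelled Sphk1/2gc-/-. Library 1 labelled Sphk1/2gc-/- held more than any WT library and library 2 held less, and the difference of 0.31 (SE 0.36) did not pass (limma adjusted p = 0.565). Without library 1 labelled Sphk1/2gc-/- the sign turned, to −0.15.

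Ccne1 (chr7:38097984-38107534, minus strand), the other E cyclin, was at 5.25, 10.6 and 11.6 FPKM in WT, against 15.1, 5.57 and 7.31 FPKM in the others, with overlap and a difference of −0.02 (SE 0.37, limma adjusted p = 0.982). Cdk2 (chr10:128697939-128705031, minus strand) was at 6.05, 6.84 and 9.28 FPKM in WT, against 8.37, 3.34 and 4.73 FPKM in the others. Its libraries overlapped through library 1 labelled Sphk1/2gc-/-, the one that was also highest for both E cyclins, and the difference was −0.43 (SE 0.28, limma adjusted p = 0.304). Without that library, Cdk2 passed at −0.73 (limma adjusted p = 0.0369).

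Among the D cyclins, Ccnd2 (chr6:127125162-127152193, minus strand) made up nearly all of the RNA. It was at 41.9, 58.9 and 58.5 FPKM in WT cumulus cells, against 48.4, 52.1 and 46.3 FPKM in those labelled Sphk1/2gc-/-, which lay inside the WT range, with a difference of −0.10 (SE 0.17, limma adjusted p = 0.702). Ccnd3 (chr17:47505051-47599691, plus strand), a D cyclin with the same kinases, was at 0.226, 0.596 and 0.844 FPKM in WT, against 1.43, 0.698 and 0.969 FPKM in the others, a difference of 0.39 (SE 0.20, limma adjusted p = 0.192). Ccnd1 (chr7:144929931-144939925, minus strand) was at 0.119, 0.0827 and 0.157 FPKM in WT, against 0.0338, 0.0537 and 0.111 FPKM in the others, which rest on 3 to 13 reads a library. It was below the level tested, and a difference was not detectable at this depth.

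**Figure D2:**
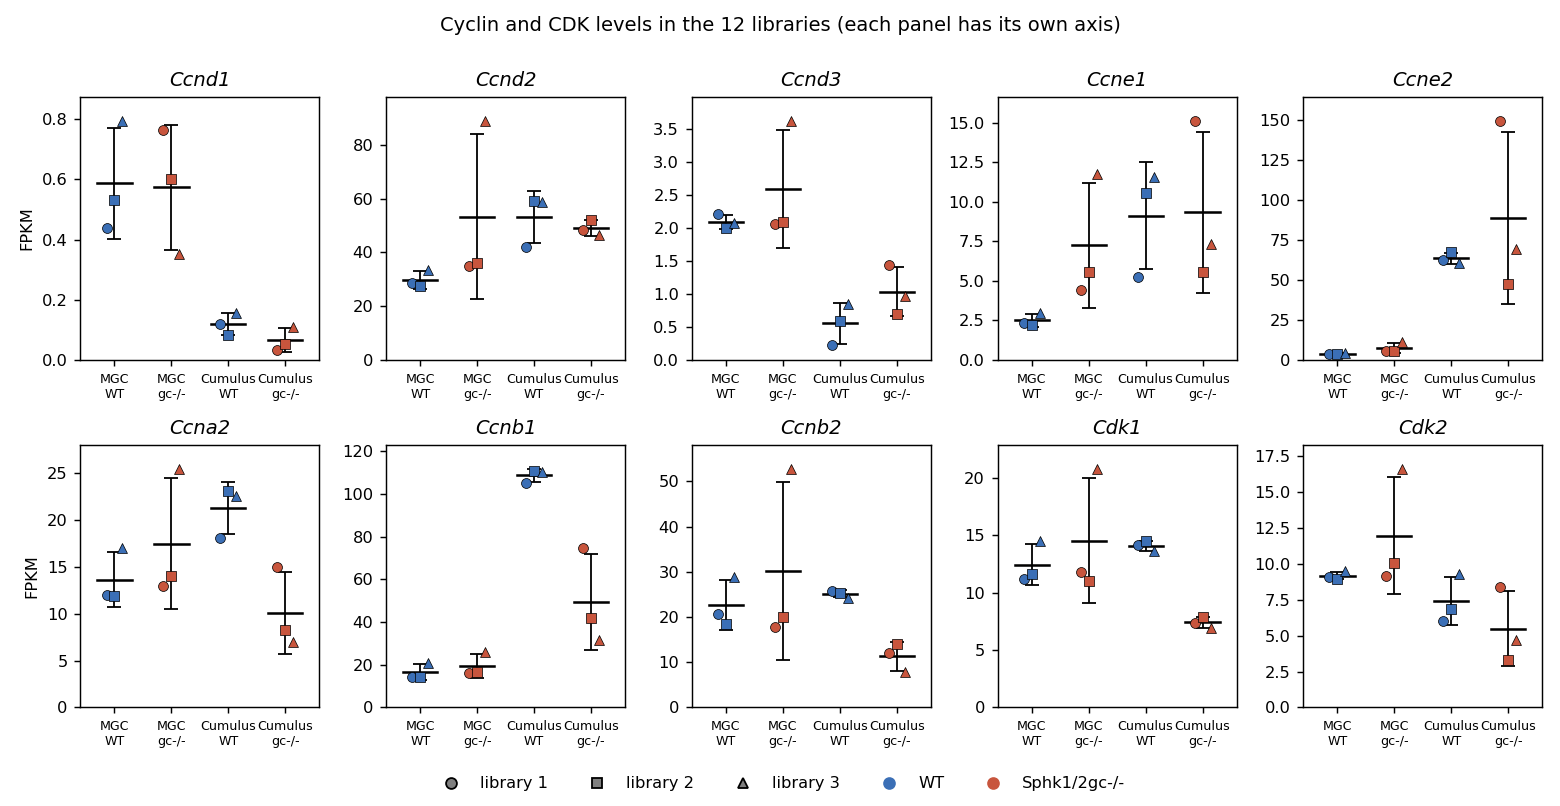
FPKM of each member in the 12 libraries, by cell type and genotype as labelled (gc-/- stands for Sphk1/2gc-/-), with symbols for libraries 1, 2 and 3, a bar for the mean and whiskers for the SD of 3 libraries. In cumulus cells Ccna2, Ccnb1, Ccnb2 and Cdk1 show no overlap between genotypes, and in MGCs library 3 labelled Sphk1/2gc-/- is the highest point for 9 of the 10 genes.

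Markers of other cells were read beside these values. The summed FPKM of 12 oocyte markers was 4.22 to 8.17 in the WT cumulus libraries and 2.41 to 2.83 in those labelled Sphk1/2gc-/-, a fall that went the same way as the mitotic cyclins. Single oocyte markers were low in all 6 libraries, with Zp3 at 0.344 to 1.92 FPKM and Gdf9 at 0.329 to 1.26 FPKM, and at most 3 of the 12 reached 1 FPKM in a library. Ooep, with the highest mean in both genotypes, was at 2.56, 1.95 and 1.38 FPKM in WT, against 0.596, 1.09 and 1.32 FPKM in the others. Its genotypes did not overlap (−0.57, limma adjusted p = 0.0801). Of the 4 oocyte markers tested, all were lower and Zp3 alone passed (−0.77, limma adjusted p = 0.0391). The 6 cumulus markers summed to 329 to 724 FPKM in WT, against 1097 to 1356 FPKM in those labelled Sphk1/2gc-/-, and did not overlap. Ptx3 (1.73, limma adjusted p = 0.00838), Tnfaip6 (1.58, limma adjusted p = 0.00937) and the low Slc38a3 (0.91, limma adjusted p = 0.035) passed as higher, whereas Npr2 (−0.01), Has2 (0.58) and Ptgs2 (−0.04) overlapped. The same list summed to more in WT MGCs, 1175 to 1474 FPKM, so it did not mark the libraries labelled cumulus cells. The 7 granulosa markers summed to 2651 to 3693 and 2330 to 2665 FPKM, the 4 mural markers to 46.9 to 109 and 42.2 to 91.6 FPKM, the 8 leukocyte markers to 5.29 to 55.4 and 9.19 to 59.2 FPKM, and the 7 theca and stroma markers to 17.1 to 60.3 and 11.4 to 32.9 FPKM, all in the order WT and Sphk1/2gc-/- and all with overlap of the sums. Gene by gene, 5 of the 7 granulosa markers did not overlap and passed as lower, like the mitotic cyclins: Foxl2 (−0.49, limma adjusted p = 0.0457), Fshr (−0.72, 0.0391), Inhba (−1.35, 0.00956), Cyp19a1 (−2.38, 0.00236) and Nr5a2 (−1.498, 0.00217). Of the 4 mural markers, Lhcgr (−1.74, limma adjusted p = 0.00933) and Cyp11a1 (−2.26, 0.00869) did so too. Star (0.06, limma adjusted p = 0.932) and Nppc (0.26, 0.641) overlapped and did not pass, so the mural list went both ways. Inha had the highest mean of the granulosa markers, 1630 FPKM in WT and 1870 FPKM in those labelled Sphk1/2gc-/-, and was at 0.23 (limma adjusted p = 0.437). Inhba came next, at means of 1284 and 498 FPKM. Of the 4 theca and stroma markers tested, 3 were lower, with a median of −0.76. Cyp17a1 alone passed, as lower and without overlap (−1.24, limma adjusted p = 0.0372). Col3a1 (−0.73, limma adjusted p = 0.0603) did not overlap either, Dcn (−0.79, 0.270) overlapped, and Acta2 was at 0.03. The 5 endothelial markers summed to at most 0.549 FPKM. Cd74 was at 0 in the 3 WT cumulus libraries and at 1.54 to 5.69 FPKM in the others, and S100a9 was at 1.75 to 11.7 FPKM in WT, against at 0 in 2 of the others. The part of cell makeup in the cyclin differences was not tested.

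In MGCs, none of the 10 members passed the test with all 6 libraries, where 0.0393% of the 15279 genes tested passed in either direction. At an unadjusted p of 0.05 or less, the members were 2, Ccne1 and Ccne2, both by limma on the FPKM scale and by voom on reads recovered from FPKM, against 9.20% of all genes at that limit by limma. With the library number as a block, which treats same-numbered MGC libraries as pairs, Ccnd2 joined them and the count was 3. In that fit 1670 of the 15279 genes were at this limit, and the labels state no such pairing. The E cyclins and Ccnd2 nonetheless showed every library labelled Sphk1/2gc-/- above every WT library, which held for 7.72% of all genes tested, and the mitotic cyclins overlapped. Ccne1 was at 2.32, 2.24 and 2.99 FPKM in WT, against 4.41, 5.57 and 11.8 FPKM in those labelled Sphk1/2gc-/-, and its difference was 1.13 (SE 0.32, limma adjusted p = 0.349). Ccne2 was at 3.68, 3.48 and 4.33 FPKM in WT, against 5.72, 5.71 and 11.1 FPKM in the others, with a difference of 0.76 (SE 0.26, limma adjusted p = 0.447). For both genes library 3 labelled Sphk1/2gc-/- lay farther from libraries 1 and 2 of its group, in FPKM, than these lay from WT.

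Ccnd2 was at 28.4, 27.4 and 33.6 FPKM in WT, against 34.9, 36.2 and 88.8 FPKM in the MGC libraries labelled Sphk1/2gc-/-, a difference of 0.69 (SE 0.35, limma adjusted p = 0.609) with most of the spread in library 3. Ccnd3 was at 2.20, 2.00 and 2.07 FPKM in WT, against 2.06, 2.09 and 3.62 FPKM in the others, a difference of 0.19 (SE 0.21, limma adjusted p = 0.827). Ccnd1 was at 0.438, 0.532 and 0.793 FPKM in WT, against 0.764, 0.602 and 0.352 FPKM in the others (difference −0.02, limma adjusted p = 0.989), and is the member for which library 3 labelled Sphk1/2gc-/- was the lowest of the 6.

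The mitotic genes of MGCs overlapped between genotypes. Ccnb1 was at 14.4, 14.2 and 20.7 FPKM in WT, against 16.1, 16.4 and 26.0 FPKM in those labelled Sphk1/2gc-/-, and Ccnb2 was at 20.8, 18.4 and 28.9 FPKM and at 17.8, 19.9 and 52.8 FPKM. In both genotypes library 3 was the highest of its group. Ccna2 was at 12.0, 11.9 and 17.0 FPKM in WT, against 12.9, 14.0 and 25.5 FPKM in the others, Cdk1 at 11.1, 11.6 and 14.4 FPKM and at 11.8, 11.0 and 20.8 FPKM, and Cdk2 at 9.11, 8.96 and 9.47 FPKM and at 9.17, 10.1 and 16.6 FPKM. Differences of these 5 genes ran from 0.16 to 0.30 (limma adjusted p = 0.730 to 0.898).

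Without the libraries numbered 3 of both genotypes, 3 members passed in MGCs, all higher: Ccne1 at 0.86 (SE 0.13, limma adjusted p = 0.0217), Ccne2 at 0.55 (SE 0.09, limma adjusted p = 0.0234) and Ccnd2 at 0.34 (SE 0.06, limma adjusted p = 0.0281). In that fit of 4 libraries 5.07% of genes passed as higher and 11.0% as lower, and the median over all genes was −0.12. Mean FPKM of libraries 1 and 2 went from 2.28 in WT to 4.99 for Ccne1, from 3.58 to 5.72 for Ccne2 and from 27.9 to 35.6 for Ccnd2. With only library 3 labelled Sphk1/2gc-/- left out, none of the 10 passed, and Ccne1 came nearest at 0.77 (limma adjusted p = 0.0795). In that fit of 5 libraries, 278 of all 15215 genes passed, 167 of them higher. Library 3 labelled Sphk1/2gc-/- also held the lowest summed levels of its group for the cumulus markers (289 against 1971 and 2266 FPKM), the mural markers (427 against 816 and 921 FPKM) and the leukocyte markers (30.4 against 180.2 and 223 FPKM). Its oocyte marker sum was the highest of the 6 MGC libraries, as were most of its cyclin levels, at 139.8 FPKM against 32.98 and 111 FPKM in its group and 44.7 to 120 FPKM in WT. Libraries 1 and 2 labelled Sphk1/2gc-/- also differed from WT, where the mural sum was 1415 to 1723 FPKM, above all 3 libraries labelled Sphk1/2gc-/-. The 5 endothelial markers summed to 12.1 to 15.2 FPKM in WT MGCs and 7.66 to 9.27 FPKM in the others. The sums of the other marker lists overlapped between genotypes. The part of these marker levels in the cyclin values was not tested.

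**Figure D3:**
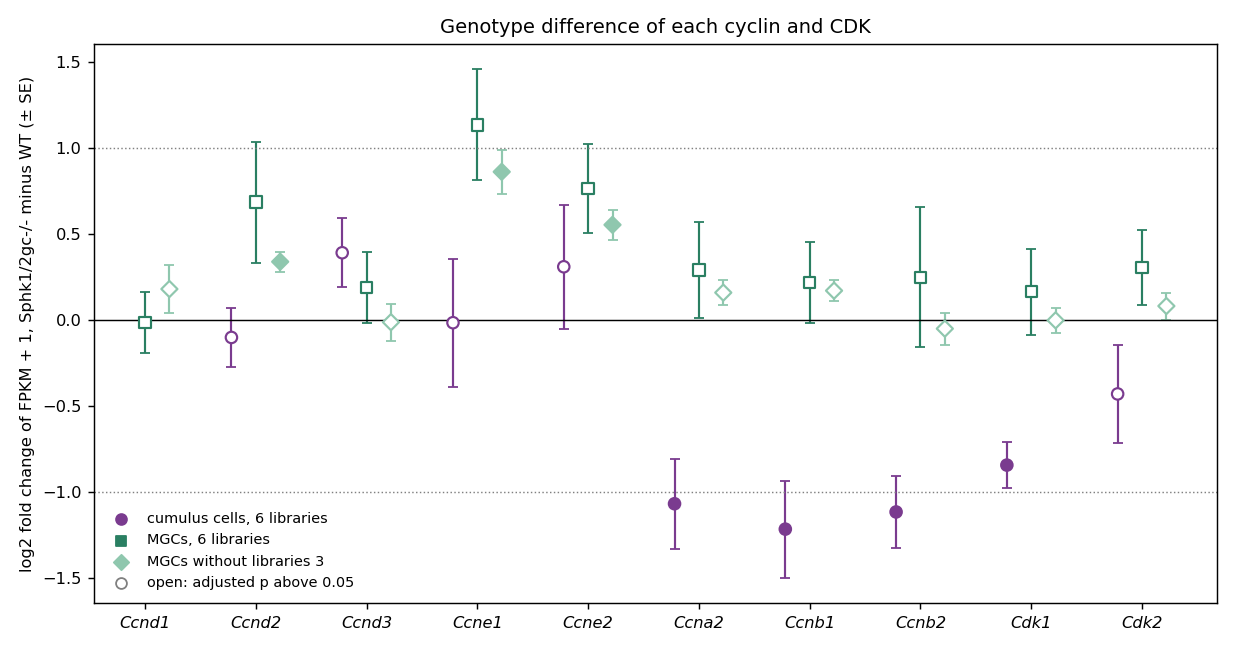
Difference between libraries labelled Sphk1/2gc-/- and WT for each member on the log2(FPKM + 1) scale, with whiskers for the SE and dotted lines at a log2 change of 1 in size, in cumulus cells, in MGCs and in MGCs without the libraries numbered 3. Filled symbols passed at a limma adjusted p of 0.05 or less: Ccna2, Ccnb1, Ccnb2 and Cdk1 in cumulus cells, below 0, and Ccnd2, Ccne1 and Ccne2 in MGCs without libraries 3, above 0. Ccnd1 was not tested in cumulus cells.

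Whether the genotype difference itself differed between the cell types was tested as an interaction over all 12 libraries, where 3.93% of 15869 genes passed. None of the 10 members passed, and 4 did at an unadjusted p of 0.05 or less, against 22.1% of all genes. The nearest were Ccnb1, whose cumulus difference was lower than its MGC difference by −1.43 (SE 0.40, limma adjusted p = 0.0653), Cdk1 at −1.01 (SE 0.29, limma adjusted p = 0.0700), Ccna2 at −1.36 (SE 0.41, limma adjusted p = 0.0826) and Ccnb2 at −1.36 (SE 0.49, limma adjusted p = 0.132). Cdk1 passed without MGC library 3 labelled Sphk1/2gc-/- (−0.74, limma adjusted p = 0.0347), without the libraries numbered 3 (−0.83, limma adjusted p = 0.0242) and with libraries rescaled by median of ratios (−1.02, limma adjusted p = 0.0403), and Ccnb2 passed without the libraries numbered 3 (−0.87, limma adjusted p = 0.0358). Of 7 alternatives, Cdk1 passed in 3, Ccnb2 in 1, and Ccna2 and Ccnb1 in 0. Cdk1 did not pass without the libraries numbered 1 (limma adjusted p = 0.227) or 2 (0.452), where 0 of all genes passed. Nor did Cdk1 pass with the library number as a block (0.0867) or with a pseudocount of 0.1 (0.0728). Rescaling also changed the split of all genes that passed, from 389 higher and 235 lower to 497 and 464. A lower mitotic group in cumulus cells is thus not shown to be particular to cumulus cells by all 12 libraries.

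Levels in WT differed between the cell types for most members. Ccnb1 and Ccne2 were far higher in cumulus cells, at means of 109 ± 3.11 and 63.6 ± 3.43 FPKM (SD, n = 3) against 16.4 ± 3.69 and 3.83 ± 0.444 FPKM in MGCs (SD, n = 3). The WT difference, MGCs minus cumulus cells, was −2.67 for Ccnb1 (SE 0.28, limma adjusted p = 3.26e-06) and −3.75 for Ccne2 (SE 0.34, limma adjusted p = 1.02e-06). Ccne1 at −1.47 (limma adjusted p = 0.00405) and Ccnd2 at −0.80 (limma adjusted p = 0.0249) were also lower in MGCs, and Ccnd3 at 1.01 (limma adjusted p = 0.00078) and Ccnd1 at 0.50 (limma adjusted p = 0.00377) were higher in MGCs. Ccna2 (−0.61, limma adjusted p = 0.0714), Ccnb2 (−0.17), Cdk1 (−0.18) and Cdk2 (0.30) did not pass. Without the libraries numbered 2, Ccne1 (limma adjusted p = 0.0540), Ccnd1 (0.0615) and Ccnd2 (0.176) no longer passed, nor did Ccnd2 without those numbered 1 (0.0536), and the members past the test went from 6 to 3 and 5. Without those numbered 3 the count was 9. Over all genes, 9762 of 15843 passed without the libraries numbered 2, and 10730 of 16028 without those numbered 1. Without those numbered 3, 12435 of 16021 genes did. With all libraries, these 6 of 10 members stand against 76.6% of all genes that passed, a share of the members below that background.

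The scale of that comparison was itself uneven. The median over all genes was 0.54, and 0.09 after rescaling by median of ratios, which changed the split of genes called at a log2 change of 1 or more from 5288 higher and 2445 lower in MGCs to 3511 and 3697. After rescaling, Ccna2 (−1.31), Ccnb2 (−0.87) and Cdk1 (−0.86) passed as lower in MGCs and Cdk2 turned from 0.30 to −0.36 without passing. Ccnd3 passed as higher at 0.63 (limma adjusted p = 0.011). Ccnd1, at 7 to 13 reads in the WT cumulus libraries, was not among the members tested after rescaling. The difference also moved with the GC content of the longest transcript, with medians of −0.06, 0.37, 0.66 and 1.14 from the lowest to the highest of 4 groups of genes of equal size, and Ccne2 (36.3% GC) and Ccnb1 (44.2% GC) lay in the lowest group. Their differences were far below the median of that group. Ccnd3 (1.01) and Ccnd1 (0.50), higher in MGCs, also lay below the medians of their own groups, 1.14 and 0.66. The part of GC content was not tested. With both tables read on the FPKM scale, oocyte markers summed to 44.7 to 120 FPKM in WT MGCs and to 4.22 to 8.17 FPKM in WT cumulus cells, the opposite order to Ccnb1 and Ccne2.

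The order of levels in WT MGCs was Ccnd2 (29.8 FPKM), Ccnb2 (22.7), Ccnb1 (16.4), Ccna2 (13.6), Cdk1 (12.4), Cdk2 (9.18), Ccne2 (3.83), Ccne1 (2.52), Ccnd3 (2.09) and Ccnd1 (0.588), as mean FPKM. From Ccnd2 to Cdk1 each neighbour overlapped the next in range, and below Cdk1 none did. In WT cumulus cells the order of mean FPKM was Ccnb1, Ccne2, Ccnd2 (53.1), Ccnb2 (25.1), Ccna2 (21.2), Cdk1 (14.1), Ccne1 (9.12), Cdk2 (7.39), Ccnd3 (0.555) and Ccnd1 (0.120), and only Ccne1 and Cdk2 overlapped as neighbours. In the cumulus libraries labelled Sphk1/2gc-/-, Ccne2 (88.7) came before Ccnb1 (49.3), with overlap.

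Within each family the same gene led in both genotypes of cumulus cells. Ccnd2 gave 98.8% ± 0.437 of the summed D cyclin FPKM in WT cumulus cells and 97.8% ± 0.763 in the libraries labelled Sphk1/2gc-/- (SD, n = 3). Ccnb1 gave 81.2% ± 0.827 and 80.3% ± 5.58 of the summed B cyclin FPKM, so that its share stayed near the WT value while the sum went from 131 to 136 FPKM in WT to 39.3 to 86.5 FPKM in the others. Ccne2 gave 87.6% ± 4.25 and 90.3% ± 0.700 of the E cyclins. In MGCs, Ccnb2 was the larger part, with Ccnb1 at 42.1% ± 1.38 in WT and 41.9% ± 7.78 in the libraries labelled Sphk1/2gc-/-, and Ccnd2 stood at 91.7% ± 0.364 and 93.8% ± 1.71.

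The make-up of the E cyclins did not overlap between genotypes in MGCs. Ccne2 gave 61.3%, 60.8% and 59.2% of the E cyclin FPKM in the WT libraries and 56.5%, 50.6% and 48.6% in those labelled Sphk1/2gc-/-. The share of Cdk1 in the sum of Cdk1 and Cdk2 overlapped between genotypes in both cell types, at 55.0% to 60.4% and 52.1% to 56.2% in MGCs and 59.4% to 70.1% and 46.8% to 70.3% in cumulus cells. These shares are descriptions, with no test.

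**Figure D4:**
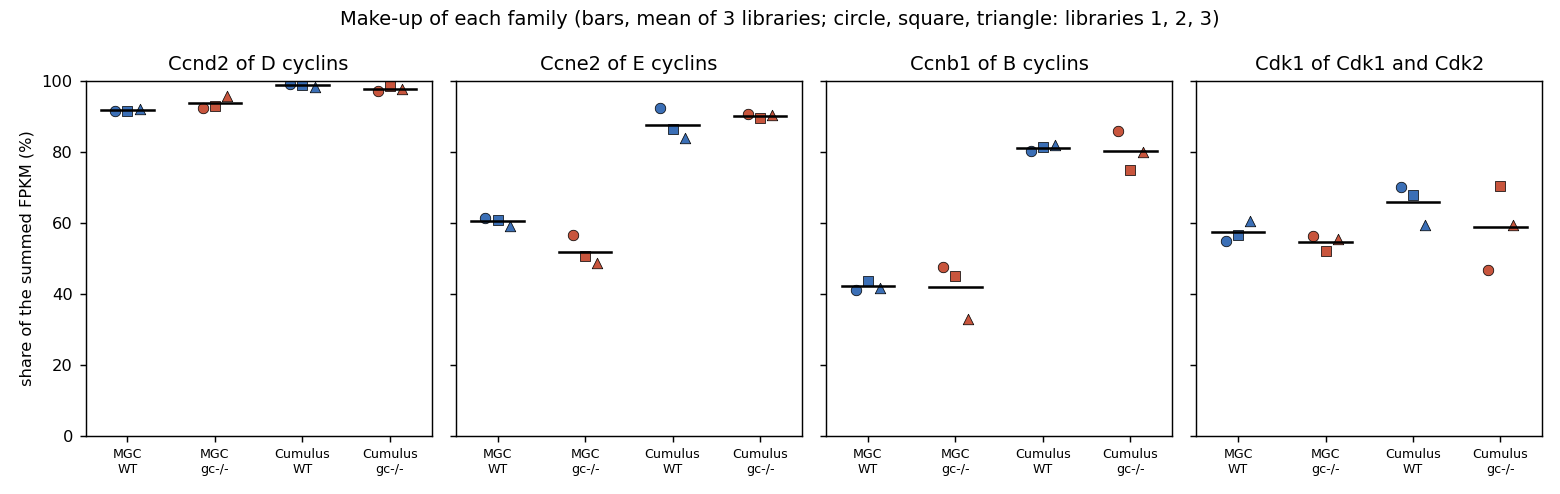
Share of Ccnd2 in the D cyclins, of Ccne2 in the E cyclins, of Ccnb1 in the B cyclins and of Cdk1 in the sum of Cdk1 and Cdk2, in percent of the summed FPKM of each library, by cell type and genotype as labelled, with bars for the mean of 3 libraries. Ccnb1 is the larger B cyclin in cumulus cells (near 80%) and the smaller in MGCs (near 42%), and the Ccne2 share in MGCs does not overlap between genotypes.

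The genes around the cyclins were read by role in cumulus cells. Cdk4 and Cdk6, the kinases of the D cyclins, went apart: Cdk6 rose by 0.84 (limma adjusted p = 0.0424), from 46.6, 73.3 and 92.4 FPKM in WT to 122, 139 and 110.2 FPKM in those labelled Sphk1/2gc-/-, and Cdk4 was at −0.44 (limma adjusted p = 0.0564). Of 5 CDK subunits and parts of the CDK-activating kinase, Cks1b, a small subunit bound to CDKs, fell by 1.09 on the log2 scale (limma adjusted p = 0.00537), and Cks2 (−0.31), Cdk7 (−0.06), Ccnh (−0.19) and Mnat1 (−0.25) did not pass. Of the 5 genes that set the inhibitory phosphates of CDKs, Cdc25c, the phosphatase that activates Cdk1, fell by 1.26 (limma adjusted p = 0.0114), from 20.5, 18.4 and 19.2 FPKM in WT to 12.1, 5.89 and 5.86 FPKM. Cdc25a (−0.09), Cdc25b (−0.33), Wee1 (−0.38) and Pkmyt1 (−0.31) did not pass.

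Of the 13 of 14 cyclin degradation genes tested, 3 fell and 1 rose, where 12.7% of all genes fell and 9.66% rose, with a median of −0.41 against −0.06 over all genes tested. Ube2c and Ube2s, the ubiquitin-conjugating enzymes that work with the anaphase-promoting complex on mitotic cyclins, fell by 1.23 (limma adjusted p = 0.00194) and 1.13 (limma adjusted p = 0.00396). The remaining ones, named after their values were seen, were Anapc11, a subunit of that complex, at −0.77 (limma adjusted p = 0.0128) and Fbxw7, which marks E cyclins for degradation, at 0.61 (limma adjusted p = 0.0196). Of the 4 of 7 CDK inhibitors tested, Cdkn1a (p21) rose by 1.81 (SE 0.29, limma adjusted p = 0.00497), from 11.1, 8.56 and 17.1 FPKM in WT to 30.8, 53.4 and 51.1 FPKM in those labelled Sphk1/2gc-/-. Cdkn2c (p18), an inhibitor of Cdk4 and Cdk6, fell by 1.23 (limma adjusted p = 0.00417), and Cdkn2d (p19), of the same family and named after its value was seen, was at −0.71 (limma adjusted p = 0.0427). Inhibitors thus passed in both directions.

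Of the 16 of 19 RB, E2F and DREAM-MuvB regulators tested, 4 fell and none rose, against the same shares of all genes, with a median of −0.41. Rb1, which holds E2F factors in check, fell by 1.06 (limma adjusted p = 0.00974), and Rbl1 (−0.96), Tfdp2 (−0.53) and Foxm1 (−0.45), a transcription factor of mitotic genes, also passed and were named after their values were seen. Of the 14 of 18 other cyclins tested, Ccnl1, a cyclin of RNA splicing, rose by 1.03 (limma adjusted p = 0.0124), and Ccng2 (−0.97) and Ccni (−0.52) fell, the last ones again named after their values were seen. Of the 11 of 18 other CDKs tested, Cdk5 alone passed, at −0.70 (limma adjusted p = 0.0197, named after its value was seen). Over all genes 12.7% passed as lower and 9.66% as higher, and the medians of these last lists were 0.23 and 0.12.

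The proliferation markers were the list with the most calls. All 14 were tested and all 14 were lower in the cumulus libraries labelled Sphk1/2gc-/-, with a median of −1.13 against −0.06 over all genes. Of the 14, 8 passed and were called, where 12.7% of all genes passed as lower and 3.85% were called as lower. Tk1, an enzyme of thymidine salvage in S phase, was at 6.21, 6.89 and 5.76 FPKM in WT, against 3.86, 1.03 and 1.02 FPKM in the others, and Bub1, a kinase of the spindle checkpoint, at 49.6, 45.3 and 43.8 FPKM and at 24.7, 14.1 and 13.5 FPKM. Library 1 labelled Sphk1/2gc-/- again stood nearest to WT for both. Tk1 fell by 1.42 (limma adjusted p = 0.0176) and Bub1 by 1.41 (limma adjusted p = 0.00545).

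In MGCs, none of these 95 genes passed with all 6 libraries, and 12 were at an unadjusted limma p of 0.05 or less, against 9.20% of all genes. The medians were 0.45 for the CDK phosphorylation genes, 0.40 for the RB, E2F and DREAM-MuvB regulators and 0.47 for the proliferation markers, all 14 of which were higher, against 0.00 over all genes. These medians rested in large part on library 3 labelled Sphk1/2gc-/-: without it they were 0.20, 0.047 and 0.12, and without the libraries numbered 3 of both genotypes 0.31, 0.12 and 0.25. Without the libraries numbered 3, 5 of the 14 proliferation markers passed as higher, against 5.07% of all genes, Top2a (0.85) and Rrm2 (0.81) at the largest differences. Cdk4 passed as lower there (−0.36, limma adjusted p = 0.0201), where 11.0% of all genes passed as lower and the median of all genes was −0.12. Cdkn1c, the p57 inhibitor, passed as lower in the same fit (−0.75, limma adjusted p = 0.0358), and it was named, like Top2a and Rrm2, after its value was seen.

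**Figure D5:**
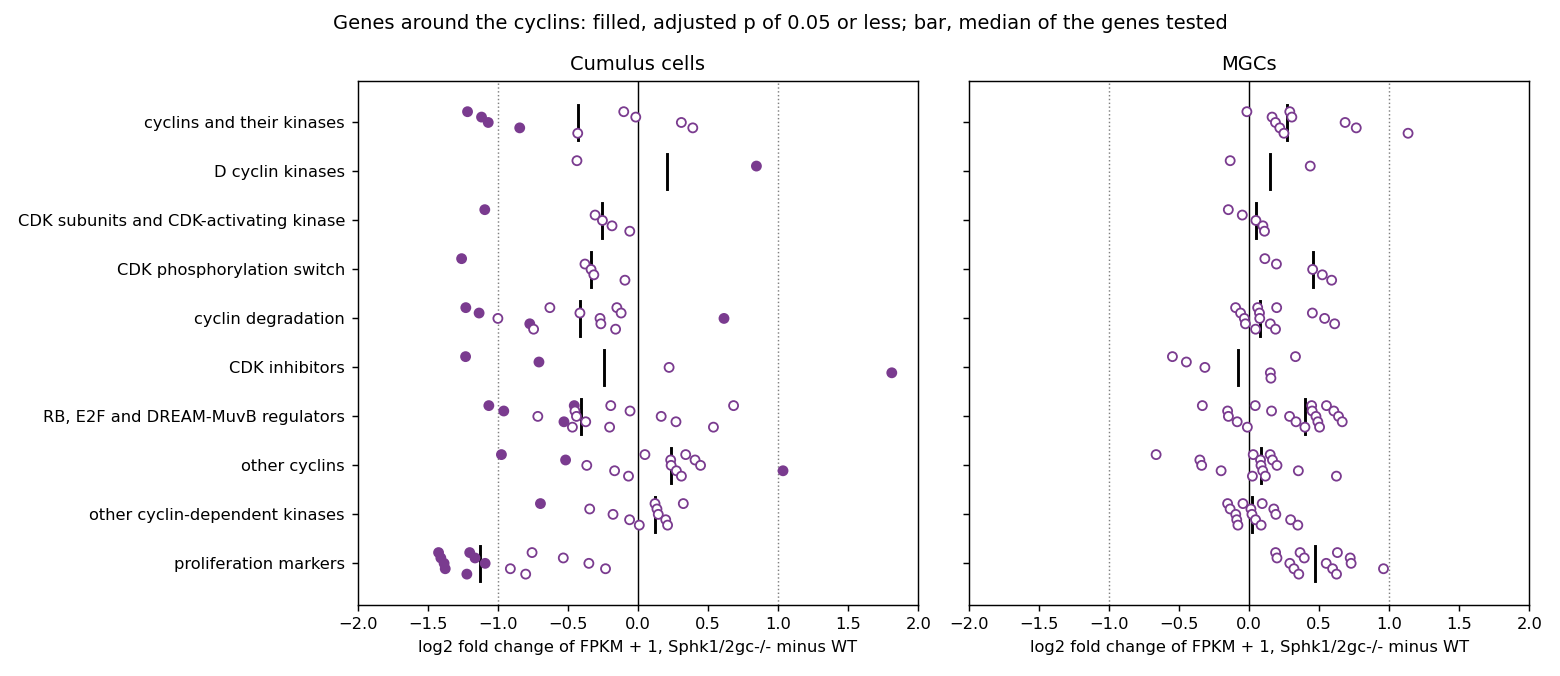
Difference between libraries labelled Sphk1/2gc-/- and WT on the log2(FPKM + 1) scale for the genes tested in each list, in cumulus cells and in MGCs with 6 libraries each, with filled points for a limma adjusted p of 0.05 or less and a bar for the median. In cumulus cells all 14 proliferation markers lie below 0 around a median of −1.13, and in MGCs no point is filled.

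Likeness of level across the 12 libraries was described by Pearson's r of log2(FPKM + 1) among the 11098 genes tested in both tables, with no test, since the points share cell types, genotypes and tables. The gene most like Ccnb1 was Cdca8 (r = 0.995), a part of the chromosomal passenger complex, and the one most like Ccna2 was Prc1 (r = 0.983), which bundles the microtubules of the central spindle. Ccnb2 was most like Cdk1 (r = 0.966), and Cdk1 most like Mphosph9 (r = 0.967). Ccne2 was most like Hnrnpf (r = 0.996), Ccnd1 like Rdx (r = 0.976), Ccnd2 like Prpf4 (r = 0.937), Ccnd3 like Atad3a (r = 0.986), Ccne1 like Hfe (r = 0.961) and Cdk2 like Mpi (r = 0.952). By this single nearest gene, the mitotic members and Ccna2 had cell division genes or each other, apart from Cdk1. Among the members alone, Ccna2 was most like Ccnb2 (r = 0.833), but Ccnb1 was most like Ccne2 (r = 0.881), which is not a mitotic member.

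Some members share reads with copies or neighbours, and their values are uncertain to that extent. Ccnb1-ps was at 3.72 to 4.75 FPKM in WT cumulus cells and 1.30 to 2.76 FPKM in those labelled Sphk1/2gc-/-, and passed as lower like Ccnb1 (−0.74, limma adjusted p = 0.0368), while Ccnb2-ps overlapped at 0.324 to 0.896 FPKM. Ccnd3-ps had at most 1 read in a cumulus library and 2 in an MGC library. Exons of Ccnd1, Ccnd2, Ccnd3, Ccne2, Ccna2 and Cdk2 overlap exons of genes on the opposite strand by 34 to 1100 bases, and the sources do not say that strand was used in counting, so reads of those stretches cannot be told apart. Ccne1, Ccnb1, Ccnb2 and Cdk1 have no such overlap.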

How the data were processed

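RNA libraries were sequenced and their reads aligned by the authors with HISAT2 to GRCm38, per the submitters' processing notes. The authors deposited FPKM per gene, in 1 table for MGCs and 1 for cumulus cells, scaled within each library. Read counts were recovered from FPKM and exon length (GENCODE M21): 90.4 to 92.0% of values were whole within 0.02 reads. Genes whose mean reached 0.5 FPKM in WT or in the other genotype were tested on log2(FPKM + 1) with limma 3.58.1 (R 4.3.3, trended variance) and Benjamini-Hochberg adjustment over all genes. A gene passed at an adjusted p of 0.05 or less, and was called if its log2 change was also at least 1 in size. The script was tested on simulated data. Same-numbered MGC libraries deviated together (r = 0.22, 0.16 and 0.22), but the labels state no pairing, so the main fits hold no block. A replicate block, run as an alternative, moved the MGC calls over all genes from 6 to 3 and no member's call. The cumulus numbers did not pair the libraries. Alternatives were a pseudocount of 0.1, no filter, rescaling by median of ratios, no trend, voom on the recovered reads, the adjusted p alone, the block, and libraries left out. The members and gene lists were chosen with earlier results of these data known. All 10 members, the D cyclin kinases, CDK subunits and phosphorylation genes were named, and from other lists the 2 called genes with the largest change in each direction, with others said to be named after their values were seen. Low read counts limit Ccnd1 and Ccnd3 in cumulus cells.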

Additional observations from a re-analysis of the deposited data

Results flagged for a closer look

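For 7 genes around the cyclins, none of them a member, the genotype difference differed between cumulus cells and MGCs by the interaction test over 12 libraries (cumulus difference minus MGC difference, limma, Benjamini-Hochberg over 15869 genes). The difference was lower in cumulus cells by −2.11 for Top2a (adjusted p = 0.0126), −1.96 for Bub1 (adjusted p = 0.0222), −1.71 for Mki67 (adjusted p = 0.0169), −1.54 for Tpx2 (adjusted p = 0.0459), −1.38 for Ube2c (adjusted p = 0.0198) and −1.11 for Ube2s (adjusted p = 0.0222). It was higher by 1.37 for Ccnl1 (adjusted p = 0.0488). With the replicate block Tpx2 (adjusted p = 0.0775) and Ccnl1 (adjusted p = 0.0806) no longer passed and the other 5 did. Without the libraries numbered 1 the adjusted p of the 7 genes ran from 0.106 to 0.185, and without those numbered 2 from 0.365 to 0.471. With a pseudocount of 0.1 Tpx2 (adjusted p = 0.0515) and Ccnl1 (adjusted p = 0.0526) did not pass, nor did Ccnl1 after rescaling (adjusted p = 0.0548). All 7 were picked out by this test, which 3.93% of all 15869 genes passed.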

How the results depend on the processing

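Over all genes, calls in cumulus cells numbered 981, and 2725 by adjusted p alone, 1674 with a pseudocount of 0.1, 1965 with voom on recovered reads and 757 to 1305 with a library left out. In MGCs, 6 calls (1 higher, 5 lower) became 1 with no filter, 1 with rescaling by median of ratios (1 higher, 0 lower), 3 with the replicate block, 0 with voom (1394 genes at an unadjusted p of 0.05 or less) and 0 to 477 with libraries left out, 0 without WT library 1 or 2 or library 2 labelled Sphk1/2gc-/- (680, 804 and 1002 at the unadjusted p), 1 without WT library 3, 2 without library 1 labelled Sphk1/2gc-/-, 477 without both libraries 3 and 170 without library 3 labelled Sphk1/2gc-/-. The interaction passed for 624 genes, 961 after rescaling and 0 to 1579 with libraries left out, 0 without those numbered 1 or 2 (2942 and 1523 by that unadjusted limit) and 1022 without MGC library 3 labelled Sphk1/2gc-/-. Rescaling turned Ccne1 in cumulus cells to 0.048 and Cdk2 in WT MGCs against cumulus cells to −0.36. With libraries left out, values crossed 0 for Ccne1 (−0.39 to 0.26) and Ccne2 (−0.15 to 0.67) in cumulus cells, for Ccnd1 (−0.10 to 0.18), Ccnd3 (−0.013 to 0.29), Ccna2 (−0.000896 to 0.46), Ccnb2 (−0.23 to 0.53) and Cdk1 (−0.11 to 0.32) in MGCs, and for Ccnd1 (−0.26 to 0.12) and Ccnd3 (−0.22 to 0.55) in the interaction. The cause was not tested. Of the members' values under alternatives, judged by the adjusted p alone, 325 kept direction and side of the threshold, 17 no longer passed, 15 came to pass and 19 changed sign. Those that no longer passed were Ccna2 and Ccnb1 in cumulus cells and Ccnd1, Ccnd2 and Ccne1 between WT cell types. Ccna2 in cumulus cells did not pass with the replicate block (adjusted p = 0.0537) or with no filter (0.0868), nor Ccnb1 with no filter (0.0776). The cumulus numbers share only a number (r = −0.15, −0.05 and 0.12), and the block left 962 calls. Fits with 4 or 5 libraries assume that a lone library varies like the others. Ccnd1 in cumulus cells is limited by its read counts.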
